A study of Mus musculus with 51 samples.

Results

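The 10 genes described here, Igf2, Igf2r, Grb10, Dlk1, Cdkn1c, Phlda2, Mest, Peg3, Ndn and Meg3, are imprinted genes that are best known for effects on growth. They were taken by name, as all probe sets whose platform symbol is exactly 1 of these 10, and they hold 36 of the 34945 probe sets with exactly 1 gene symbol. Where a gene had several probe sets, the one with the largest standard deviation (SD) over the 51 arrays stood for it, so that the 10 genes are 10 of the 18193 genes tested. One further probe set names Igf2r together with Airn and was left out.

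The study followed single mouse embryos on Affymetrix arrays, 1 embryo or oocyte to an array. For the clones, nuclei of B6CBF1 Sertoli cells, the supporting cells of the testis tubule, were put into B6D2F1 oocytes, and 5 clones were measured per stage. In vitro fertilised (IVF) embryos were B6D2F1×B6D2F1, with 3 at each stage, and 3 unfertilised metaphase II (MII) oocytes were B6D2F1. The stages were 1-cell, 2-cell, 4-cell, 8-cell, morula and blastocyst, collected 16, 32, 48, 62, 72 and 84 hours after activation of the clones or addition of sperm, and all embryos were kept in KSOM medium. Clones and IVF embryos thus differ in nuclear donor, strain background, activation and sex together, and these cannot be told apart. Sertoli nuclei are male, while IVF embryos can be of either sex. The labels do not say whether embryos of a group shared a day or a batch of oocytes, so the p-values measure the spread between these single embryos.

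An imprinted gene is transcribed mainly from the copy inherited from 1 parent, because DNA methylation set in the egg or the sperm is kept at a nearby control region while the rest of the genome is reprogrammed after fertilisation. Igf2, Dlk1, Mest, Peg3 and Ndn are expressed from the paternal copy, and Igf2r, Grb10, Cdkn1c, Phlda2 and Meg3 mainly from the maternal copy in most tissues. Several paternally expressed members promote growth, and several maternally expressed ones restrain it. The nucleus of a clone brings the imprints of the cell it came from, while the RNA of the oocyte stays behind in the cytoplasm. The arrays measure the RNA of both copies together, so they say nothing of which allele was read.

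The promoters below are shown because TGCCGC, the core that ZFP57 binds when it is methylated, was searched for in the promoter windows of all the genes. ZFP57 is a zinc finger protein that keeps imprints in the early embryo. Each window is 300 bases, 250 before and 50 after a transcription start, from RefSeq on GRCm38.p6, read 5′ to 3′ on the gene's own strand, and capitals mark the motif or its reverse complement, GCGGCA. The positions are chr6:30737800-30738099 (+ strand) for Mest, chr11:12037371-12037670 (- strand) for Grb10, chr7:142661222-142661521 (- strand) for Igf2 and chr12:109540746-109541045 (+ strand) for Meg3.
Mest: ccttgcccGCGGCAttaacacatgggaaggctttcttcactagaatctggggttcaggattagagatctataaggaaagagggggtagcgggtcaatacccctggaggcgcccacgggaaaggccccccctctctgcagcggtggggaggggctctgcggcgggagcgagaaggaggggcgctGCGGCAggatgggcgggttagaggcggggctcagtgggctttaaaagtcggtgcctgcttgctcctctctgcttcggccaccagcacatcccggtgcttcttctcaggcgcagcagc
Grb10: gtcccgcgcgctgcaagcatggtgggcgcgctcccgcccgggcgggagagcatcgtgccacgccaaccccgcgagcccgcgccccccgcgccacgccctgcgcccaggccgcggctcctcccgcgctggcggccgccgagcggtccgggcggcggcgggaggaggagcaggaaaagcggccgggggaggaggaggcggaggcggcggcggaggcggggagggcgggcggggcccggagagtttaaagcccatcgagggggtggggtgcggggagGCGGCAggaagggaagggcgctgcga
Igf2: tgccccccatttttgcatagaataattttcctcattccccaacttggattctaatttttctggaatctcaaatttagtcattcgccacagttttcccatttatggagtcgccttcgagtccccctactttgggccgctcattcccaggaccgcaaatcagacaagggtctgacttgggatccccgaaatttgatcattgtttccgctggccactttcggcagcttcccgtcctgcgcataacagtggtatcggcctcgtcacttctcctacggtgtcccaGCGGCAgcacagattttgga
Meg3: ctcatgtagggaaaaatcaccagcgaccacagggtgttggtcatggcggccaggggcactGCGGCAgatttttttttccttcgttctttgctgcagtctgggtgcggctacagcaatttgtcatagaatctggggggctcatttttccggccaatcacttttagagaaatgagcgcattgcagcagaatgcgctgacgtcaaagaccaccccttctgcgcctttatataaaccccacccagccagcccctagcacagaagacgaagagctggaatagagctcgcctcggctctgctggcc
The motif lay in 5 of the 16 windows found for 9 of the 10 genes, or 31.2%, and in 11.6% of the 32851 windows of all genes. The motif holds a CpG, and the windows of these genes have a median of 13 CpG against 7 over all windows. The 5 windows belong to 4 genes, and a pair of them are starts of Mest that lie 3 bases apart and share their matches. The Mest window holds 2 matches and the other windows shown hold 1 each. The windows of Igf2r, Dlk1, Phlda2, Peg3 and Ndn hold none in these letters, and the table has no window for Cdkn1c. A window is a stretch of reference sequence, and neither binding nor methylation was measured.

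The values are log2 intensities that were centred for each probe set, so a value is a difference from that probe set's own baseline, and levels of different genes cannot be set against each other. Among the 18193 genes, 6.31% differed between clones and IVF embryos at the 1-cell stage, 2.37% at the 2-cell, 2.26% at the 4-cell, 6.62% at the 8-cell, 0.165% at the morula and 6.18% at the blastocyst stage (limma, adjusted p under 0.05). The bacterial hybridisation controls, which are spiked in after amplification, differed by -1.02 between 1-cell clones and 1-cell IVF embryos (clone minus IVF), and were higher by 1.27, 1.31 and 0.83 in 2-cell, 4-cell and 8-cell clones than in IVF embryos of those stages (exact permutation test, two-sided, p = 0.0357 each, the smallest that 5 against 3 allows, adjusted p = 0.0536). 3 arrays stood apart. 1-cell clones 4 and 5 had hybridisation controls of 0.35 and 0.5, against -1.02 to -0.71 in the other 1-cell clones, and a lower 3′ minus 5′ difference of Actb (-2.45 and -1.69, against -0.02 to 0.41). 8-cell clone 4 had the Y-linked Eif2s3y at -5.25, near the oocytes (-5.42 to -5.37), although Sertoli nuclei are male. Each result on these groups was also computed without these 3 arrays, and is given where the call changed. In IVF embryos Eif2s3y was mixed, at 0.53, -5.48 and -5.38 in 4-cell embryos and at -5.52, 2.24 and 2.06 in blastocysts. The part of sex in the differences between clones and IVF embryos was not tested. Sertoli cell markers, which the donor nucleus could have brought with its cell, had 0 of 12 genes past the test (limma) at the 1-cell, 2-cell and 4-cell stages, where 0, 2 and 2 had an unadjusted p below 0.05, and the array means of the list were -0.26 to 0.12 in 1-cell clones and -0.31 to -0.25 in 1-cell IVF embryos. At later stages 1 of the 12 passed at each, Gata4 at the 8-cell stage (-4.27 ± 0.53, limma, adjusted p = 0.00997), Rhox5 in morulae (8.07 ± 0.38, adjusted p = 0.000823) and Aard in blastocysts (2.38 ± 0.43, adjusted p = 0.0276), and the array means of the list were 0.59 to 1.13 in clone morulae against -0.21 in IVF morulae, and 0.7 to 1.18 in clone blastocysts against 0.0 to 0.29 in IVF blastocysts. The median difference of the 12 genes was 0.01 in both morulae and blastocysts, against 0.01 and -0.01 over all genes. Rhox5, at 7.75 in clone morulae against -0.32 in IVF morulae, weighs heavily in the morula means. The part of these markers in the morula and blastocyst values below was not tested. Of the 8 measured markers of cumulus cells, which surround the oocyte, 0 passed at any of the 6 stages (limma), and 2 of the 48 tests had an unadjusted p below 0.05.

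The estimates of these genes that passed lay mostly between stages, in IVF embryos and in clones. Over the 6 transitions of the oocytes and IVF embryos, 11 of 60 tests of these genes passed (limma, adjusted p under 0.05), or 18.3%. These were 3 of the 10 genes between oocytes and 1-cell embryos, where 30.6% of all genes passed, 3 at the next step (35.9%), 2 between the 2-cell and 4-cell stages (23.8%), 1 between the 4-cell and 8-cell stages (1.98%), 0 between the 8-cell stage and the morula (17.2%, with 3 at an unadjusted p under 0.05) and 2 between the morula and the blastocyst (22.6%). Over the 5 clone transitions 14 of 50 passed, or 28.0%, against 25.9% over all genes. These were 6 of the 10 genes between the 1-cell and 2-cell stages (41.3% of all genes), 5 at the next step (29.9%), 0 between the 4-cell and 8-cell stages (6.5%, with 1 at an unadjusted p under 0.05), 1 to the morula (17.4%) and 2 to the blastocyst (34.5%). At most steps of both series the share of these genes is near that of all genes or below it. Between clones and IVF embryos at the same stage, 1 of 60 tests passed, or 1.67%, against 3.99% over all genes, and 9 of the 60 had an unadjusted p under 0.05, against 17.6% of the tests over all genes. The gene was Grb10 at the 1-cell stage, so 1 of the 10 genes passed at any stage, as 19.8% of all genes did. In the test of whether a transition differed between clones and IVF embryos, 1 of 50 passed, or 2.0%, against 4.49% over all genes, and 10 of the 50 had an unadjusted p under 0.05, against 15.0% over all genes. The gene was again Grb10, between the 2-cell and 4-cell stages, where 2.64% of all genes passed. Over the other steps, from the 1-cell to the 2-cell, the 4-cell to the 8-cell, the 8-cell to the morula and the morula to the blastocyst stage, 11.2%, 1.31%, 5.66% and 1.62% of all genes passed.

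Igf2 (chromosome 7, 142650768 to 142666816, GRCm38.p6) encodes the main growth factor of the fetus. It stood at 0.9, 2.13 and 1.48 in the 3 MII oocytes. At the 1-cell stage it stood at 1.22, 1.31, 1.15, 0.88 and -0.19 in clones, against 0.29, -0.18 and -0.19 in IVF embryos. Thus 4 of the 5 clones lay above all 3 IVF embryos, and clone 5 lay with the IVF embryos. IVF 1-cell embryos minus oocytes was -1.53 ± 0.32 (estimate ± standard error, limma, adjusted p = 0.00136). This call was lost after the arrays were quantile-normalised again (-0.85, adjusted p = 0.327). Clones exceeded IVF embryos at the 1-cell stage by 0.90 ± 0.37 (limma, adjusted p = 0.262), and without 1-cell clone 5 the difference was 1.17 and passed (limma, adjusted p = 0.0245), as it did without all the arrays that stood apart (1.25, adjusted p = 0.0275).

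From the 2-cell to the morula stage Igf2 stayed within a narrow band in most embryos, with group means between -0.26 and 0.31. Only 2-cell clone 4, 8-cell clone 5 and morula IVF embryo 3 lay above 0.5 in these stages, at 1.14, 0.58 and 1.01. In blastocysts Igf2 stood at 2.63, 0.24, 2.14, 3.76 and 2.75 in clones, against 2.54, 2.52 and 2.99 in IVF embryos. The 3 IVF blastocysts lay close together, while the clones spanned 3.52, with clone 2 near the values of morulae. Blastocysts were higher than morulae by 2.57 ± 0.40 in clones (limma, adjusted p = 1.7e-05), or 5.93-fold, and by 2.52 ± 0.32 in IVF embryos (adjusted p = 3.92e-05), or 5.73-fold. Clone minus IVF in blastocysts was -0.38 (95% interval -2.12 to 1.36), which reaches from 4.35-fold lower to 2.57-fold higher in clones. Trophectoderm markers, of the outer cells of the blastocyst, had array means of 5.11 to 5.89 in clone blastocysts and 5.4 to 5.64 in IVF blastocysts, and inner cell mass markers 1.04 to 2.14 in clone blastocysts and 2.23 to 2.38 in IVF blastocysts. Primitive endoderm markers had array means of 1.78 to 4.57 in clone blastocysts and 2.44 to 2.55 in IVF blastocysts, and of these Gata6 passed (0.73 ± 0.14, limma, adjusted p = 0.0303). Their part in the spread of Igf2 was not tested. An array holds a whole embryo, so fewer cells of a type and less RNA per cell cannot be told apart.

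Igf2r (chromosome 17, 12682406 to 12769706), the receptor that carries IGF2 to the lysosome for breakdown, dipped at the 1-cell stage and was highest at the 4-cell and 8-cell stages. It stood at -2.3, -1.47 and -2.46 in oocytes. In 1-cell embryos it stood at -3.33, -4.06, -6.08, -4.09 and -5.17 in clones, against -4.24, -7.13 and -7.2 in IVF embryos. All 1-cell embryos of both kinds lay below all oocytes (IVF embryos and oocytes did not overlap for 63.1% of all genes), and the clone and IVF ranges overlapped through IVF embryo 1. Clone minus IVF was 1.65 ± 0.92 (95% interval -0.55 to 3.84, limma, adjusted p = 0.464), and passed in 1 fit of all the arrays (1.65, adjusted p = 0.0161). IVF 1-cell embryos minus oocytes was -4.11 ± 0.58 (limma, adjusted p = 4.04e-05), or 17.2-fold lower. At the 2-cell stage Igf2r stood at 0.38, 0.32, 0.53, -0.3 and -0.62 in clones, against -0.06, -0.61 and 0.48 in IVF embryos. The step from the 1-cell stage was a rise of 4.60 ± 0.38 in clones (limma, adjusted p = 7.02e-11) and of 6.13 ± 0.58 in IVF embryos (limma, adjusted p = 3.82e-07). These were the largest estimates among the 10 genes in the transitions of each series.

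Igf2r went on rising to the 4-cell stage in clones, by 1.48 ± 0.38 (limma, adjusted p = 0.00346), and the same step in IVF embryos was 1.24 ± 0.58 (limma, adjusted p = 0.153). The IVF step passed after quantile normalisation (2.06, adjusted p = 0.00745) and without 1-cell IVF embryo 1 (1.24, adjusted p = 0.00649). The highest group means of Igf2r were those of the 4-cell and 8-cell stages, 1.54 and 1.16 in clones against 1.17 and 1.60 in IVF embryos, and neighbours in this order overlapped. Clones fell by 1.57 ± 0.38 between the 8-cell stage and the morula (limma, adjusted p = 0.00417). The same step in IVF embryos was -1.42 (limma, adjusted p = 0.124). It passed after quantile normalisation (-2.02, adjusted p = 0.00751) and without 1-cell IVF embryo 1 (-1.42, adjusted p = 0.00359). In blastocysts Igf2r stood at -0.46, -0.6, 0.0, -0.83 and -0.47 in clones, against 0.32, 0.04 and 0.31 in IVF embryos. The groups did not overlap, as for 16.3% of all genes at this stage, and the difference of -0.69 ± 0.18 did not pass (limma, adjusted p = 0.0795). It passed without blastocyst clone 3, the highest of the clones (-0.81, adjusted p = 0.028). The second probe set of Igf2r gave -0.13 ± 0.15 for the same comparison (adjusted p = 0.732 over all probe sets), so this difference was seen with 1 probe set of 2.

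Grb10 (chromosome 11, 11930499 to 12037428) encodes an adaptor that binds the insulin and IGF1 receptors and dampens their signal. It was highest in oocytes, at 6.51, 6.54 and 6.35. In 1-cell embryos it stood at 5.78, 6.16, 5.35, 5.98 and 5.94 in clones, against 4.93, 4.57 and 4.18 in IVF embryos. Oocytes, clones and IVF embryos held 3 separate ranges in that order. Grb10 was higher in 1-cell clones than in IVF embryos by 1.28 ± 0.23 (95% interval 0.73 to 1.83, limma, adjusted p = 0.026), or 2.43-fold. The 1-cell clone and IVF values of 14.8% of all genes did not overlap either. The direction held in each alternative, but the call was lost without each of 6 of the 8 embryos in turn (1.09 to 1.30, adjusted p 0.0578 to 0.0884), with the hybridisation controls as a covariate (1.45, adjusted p = 0.0981), without the 3 arrays that stood apart (1.20, adjusted p = 0.11) and in 1 fit of all the arrays (1.28, adjusted p = 0.187). The 6 were IVF embryos 2 and 3 and clones 1, 2, 4 and 5. The hybridisation controls differed between these groups in the other direction, and their part in the result was not tested beyond that covariate.

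From the 2-cell to the 4-cell stage Grb10 took a different course in clones and IVF embryos. At the 2-cell stage it stood at 3.56, 3.76, 3.55, 4.08 and 2.28 in clones, against 2.82, 3.21 and -0.2 in IVF embryos. At the 4-cell stage it stood at -0.75, 0.0, -1.07, -0.13 and -1.11 in clones, against 2.5, 0.44 and 2.95 in IVF embryos. All 5 clones at the 4-cell stage lay below all 3 IVF embryos, as 11.1% of all genes did not overlap there, while at the 2-cell stage the ranges overlapped through IVF embryo 3. The clone step was -4.05 ± 0.42 (limma, adjusted p = 2.95e-08), or 16.6-fold lower, and the IVF step was 0.02 ± 0.77 (limma, adjusted p = 0.992). The IVF step rested on 2-cell IVF embryo 3, and without it was -1.06 ± 0.61 (adjusted p = 0.274). The clone step minus the IVF step was -4.07 ± 0.81 (95% interval -5.72 to -2.42, limma on all 51 arrays, adjusted p = 0.00249). The difference stayed past the test without each of the 51 arrays in turn (-4.83 to -3.00, adjusted p 0.000419 to 0.0167) and in the 6 other settings run. Clone minus IVF within the 4-cell stage was -2.57 ± 0.61 and did not pass in the fit of that stage alone (limma, adjusted p = 0.0963), but passed without 4-cell IVF embryo 2 (-3.33, adjusted p = 0.0276) and in 1 fit of all the arrays (-2.57, adjusted p = 0.00273). The hybridisation controls were higher in the clones at both of these stages, by 1.27 and 1.31. The difference between the steps still passed with them as a covariate. Shifts this alike nearly cancel in that difference, so the covariate could hardly change it, and the part of the controls was not tested.

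Between the 4-cell and 8-cell stages the IVF step of Grb10 was -2.17 ± 0.77 (limma, adjusted p = 0.193), which did not pass. From the 8-cell stage on Grb10 was low in both kinds of embryo, with means between -0.89 and -0.13 in clones and between -1.17 and -0.21 in IVF embryos. Among the morulae, clones 2 and 5 stood above the rest, at 0.38 and 1.73, and IVF blastocyst 2 stood at 0.47. The step from the 1-cell to the 2-cell stage was -2.40 ± 0.42 in clones (limma, adjusted p = 3.08e-05) and -2.62 ± 0.77 in IVF embryos (limma, adjusted p = 0.013). The IVF fall rested on 2-cell embryo 3, without which it was -1.54 (adjusted p = 0.0698), and both falls were lost after quantile normalisation (-0.26 in clones, adjusted p = 0.994, and -1.14 in IVF embryos, adjusted p = 0.563). The other 2 probe sets of Grb10 moved little (SD 0.43 and 0.05 against 2.73), and none of their clone against IVF tests passed, so the Grb10 results come from 1 probe set.

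Dlk1 (chromosome 12, 109452485 to 109463336), a Notch-like ligand that holds back differentiation in the fetus, hardly moved in any group. Its values lay between -0.07 and 0.34 on all arrays, and its SD of 0.07 was lower than that of all but 9.62% of genes, where the median gene had 1.01. The highest values were 0.34 and 0.19 in 4-cell clones 5 and 4. It passed 0 of the 22 comparisons (limma), and 0 had an unadjusted p under 0.05. Detection calls were not used here, so whether Dlk1 was above background was not judged.

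Cdkn1c (chromosome 7, 143458339 to 143461059), which encodes p57, an inhibitor of cyclin-dependent kinases, stood high in oocytes and 1-cell embryos and at its baseline from the 8-cell stage on. It stood at 4.49, 4.29 and 3.29 in oocytes. In 1-cell embryos it stood at 4.46, 4.6, 4.92, 3.55 and 4.02 in clones, against 2.9, 2.83 and 4.01 in IVF embryos. Clones 2 and 3 lay above the highest oocyte and the other clones within the oocyte range, and the IVF range reached into that of the clones through embryo 3. Clone minus IVF was 1.07 ± 0.4 (95% interval 0.1 to 2.03, limma, adjusted p = 0.221). The 2-cell values were -0.05, 3.09, -0.17, 1.37 and 2.87 in clones, against 3.45, 0.0 and 1.27 in IVF embryos. Single 2-cell embryos of both kinds thus differed by more than 3 units from each other. Clones fell by 2.89 ± 0.42 between the 1-cell and 2-cell stages (limma, adjusted p = 2.05e-06) and by a further 1.42 ± 0.42 to the 4-cell stage (limma, adjusted p = 0.0118). The second fall was at the threshold without 2-cell clone 2 or 5 (-1.0 and -1.06, adjusted p = 0.0513 and 0.0511). The IVF step from the 1-cell to the 2-cell stage was -1.67 (limma, adjusted p = 0.0516), and -2.61 without 2-cell IVF embryo 1 (adjusted p = 0.000345). At -1.67 it also passed in 1 fit of all the arrays (adjusted p = 0.0208) and with the replicate number as a block (adjusted p = 0.0431). The same held after the 30% of genes with the lowest SD were removed (adjusted p = 0.0296). From the 8-cell stage on every embryo of both kinds lay between -0.35 and 0.51.

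Phlda2 (chromosome 7, 143501545 to 143503145), a gene that limits growth of the placenta and lies 40.5 kb from Cdkn1c in the same imprinted cluster, had its highest group mean in oocytes, at 3.66, 4.35 and 2.83, though single later embryos reached these values. In 1-cell embryos Phlda2 stood at 1.87, 1.29, 1.57, 2.05 and 2.07 in clones, against 0.17, 0.73 and 1.14 in IVF embryos. All 5 clones lay above all 3 IVF embryos and below all 3 oocytes. Clone and IVF values did not overlap for 14.8% of all genes at this stage. Clones exceeded IVF embryos by 1.09 ± 0.27 (95% interval 0.44 to 1.75, limma, adjusted p = 0.0731), which did not pass, but passed after the 30% of genes with the lowest SD were removed (1.09, adjusted p = 0.0447). IVF 1-cell embryos minus oocytes was -2.93 ± 0.82 (limma, adjusted p = 0.012), a call lost without MII oocyte 2 (-2.56, adjusted p = 0.0527) and after quantile normalisation (-1.59, adjusted p = 0.479). At the 2-cell stage single clones ranged from -0.02 to 5.47, and IVF embryos from 0.0 to 2.35.

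At the 8-cell stage Phlda2 stood at -0.01, -0.17, 0.01, 0.01 and 0.01 in clones, against 4.32, -0.01 and 3.09 in IVF embryos. A pair of the IVF embryos stood high, and the third lay at the level of the clones. Clone minus IVF was -2.50 ± 0.89 (95% interval -4.63 to -0.37) and did not pass (limma, adjusted p = 0.133). Without 8-cell IVF embryo 2 it was -3.74 and passed (adjusted p = 0.00557), as it did in 1 fit of all the arrays (-2.50, adjusted p = 0.0109). The difference between clones and IVF embryos in the step from the 4-cell to the 8-cell stage passed without that same embryo (-3.87, adjusted p = 0.0284), and that in the step from the 8-cell stage to the morula without it (3.70, adjusted p = 0.0165) or without 2-cell clone 2 (2.47, adjusted p = 0.0443). All 8 morulae lay between -0.17 and 0.0.

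Mest (chromosome 6, 30733506 to 30748466), which encodes a protein of the alpha/beta hydrolase family, fell in 2 steps after the 1-cell stage and rose again in blastocysts. It stood at 5.83, 6.06 and 5.88 in oocytes. In 1-cell embryos it stood at 5.36, 5.08, 5.59, 5.32 and 5.34 in clones, against 5.32, 6.12 and 5.9 in IVF embryos. The clone minus IVF difference was -0.44 (95% interval -0.91 to 0.03, limma, adjusted p = 0.314). The 2-cell values were -0.51, 2.0, 2.56, 2.61 and 1.58 in clones, against 3.09, 2.58 and 1.01 in IVF embryos. The step from the 1-cell stage was -3.69 ± 0.50 in clones (limma, adjusted p = 6e-07) and -3.55 ± 0.58 in IVF embryos (limma, adjusted p = 0.000123). A second fall followed to the 4-cell stage, of -2.70 ± 0.50 in clones (limma, adjusted p = 0.000125) and -3.26 ± 0.58 in IVF embryos (limma, adjusted p = 0.000675). The first IVF fall was lost after quantile normalisation (-1.69, adjusted p = 0.133).

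In blastocysts Mest stood at -0.06, 0.7, 2.21, 0.16 and 0.43 in clones, against -0.14, 1.11 and 1.35 in IVF embryos. It had risen since the morula by 1.33 ± 0.50 in clones (limma, adjusted p = 0.0405) and by 2.08 ± 0.58 in IVF embryos (limma, adjusted p = 0.0182). Both rises were lost without single embryos, and the clone rise also after quantile normalisation (1.41, adjusted p = 0.054). In clones these were blastocysts 2, 3 and 5 and morulae 1 and 5 (0.95 to 1.40, adjusted p 0.0524 to 0.144), and in IVF embryos blastocysts 2 and 3 and morulae 1 and 2 (1.77 to 2.00, adjusted p 0.0526 to 0.0784). Mest has 1 probe set, and of its 6 clone against IVF tests 0 passed (limma), with 0 at an unadjusted p under 0.05.

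Peg3 (chromosome 7, 6703892 to 6730462) encodes a large zinc finger protein. It stood at 2.67, 2.14 and 2.98 in oocytes. The 1-cell values were 3.82, 2.12, 2.7, 1.59 and 2.24 in clones, against 1.51, -2.43 and 1.91 in IVF embryos. 4 of the 5 clones lay above the highest IVF embryo, and IVF embryo 2 lay far below the other two. Clone minus IVF was 2.17 ± 1.07 (95% interval -0.41 to 4.74, limma, adjusted p = 0.384). IVF 1-cell embryos minus oocytes was -2.27 ± 0.97 (limma, adjusted p = 0.0985), and passed without 1-cell IVF embryo 3 (-3.06, adjusted p = 0.0369). With the second probe set of Peg3 it was -2.44 ± 0.63 (adjusted p = 0.00784 over all probe sets). Between the 1-cell and 2-cell stages clones fell by 2.87 ± 0.65 (limma, adjusted p = 0.000601), a call lost after quantile normalisation (-1.52, adjusted p = 0.179). The second probe set of Peg3 also fell in clones over that step, by 1.82 ± 0.40 (adjusted p = 0.000491 over all probe sets). Later values scattered widely, with single embryos at -2.41 in 4-cell clones and at 2.69 in IVF morulae, and no other test of the main probe set passed as reported, with 4 at an unadjusted p under 0.05. After quantile normalisation the IVF steps to the morula and blastocyst passed (limma, 4.07 and -4.12, adjusted p = 0.0117 and 0.0127). They also passed without 1-cell IVF embryo 2 (2.45 and -2.35, adjusted p = 0.0229 and 0.0243). The clone step to the blastocyst passed without morula clone 1 (-1.8, adjusted p = 0.0265). The difference between the clone and IVF steps to the 2-cell stage passed without 1-cell IVF embryo 3 (-3.64, adjusted p = 0.0411).

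Ndn (chromosome 7, 62348277 to 62349928), which encodes necdin, a MAGE family protein known from neurons that leave the cell cycle, was near its baseline in oocytes (-0.04, 0.07 and -0.03). At the 1-cell stage it stood at 3.6, 0.27, 3.48, 6.17 and 2.36 in clones, against -0.13, -0.05 and -0.14 in IVF embryos. All 5 clones lay above all 3 IVF embryos and all 3 oocytes, and clone 2 lay near them. It is the 1 gene of the 10 whose 1-cell clones all lay above both, as in 0.687% of all genes. Clone minus IVF was 3.28 ± 1.22 (95% interval 0.37 to 6.20), and with this spread it did not pass (limma, adjusted p = 0.21). It passed in 1 fit of all the arrays, which takes the spread from all groups (3.28, adjusted p = 0.00829). At the 2-cell stage it was back at 0.0, -0.12, -0.13, -0.17 and -0.1 in clones, against -0.15, 0.0 and -0.13 in IVF embryos. The clone step was -3.28 ± 0.85 (limma, adjusted p = 0.00229), and it was lost after quantile normalisation (-1.83, adjusted p = 0.19).

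At the 4-cell stage Ndn stood at -0.08, 2.53, 3.67, 0.65 and 3.26 in clones, against 4.52, 2.81 and 1.68 in IVF embryos. IVF embryos rose by 3.10 ± 0.67 over the 2-cell stage (limma, adjusted p = 0.00298), and the clone step was 2.11 ± 0.85 (limma, adjusted p = 0.064), which did not pass. The clone step passed without the 3 arrays that stood apart (2.11, adjusted p = 0.0464), after the filter on SD (2.11, adjusted p = 0.0428), after quantile normalisation (3.17, adjusted p = 0.0128), in 1 fit of all the arrays (2.11, adjusted p = 0.027) and without 1-cell clone 2 or 4 or 4-cell clone 1 or 4 (2.11 to 2.63, adjusted p 0.0227 to 0.0449). At the 8-cell stage it stood at 0.15, 3.87, 2.48, 1.36 and 0.36 in clones, against -0.04, -0.15 and -0.16 in IVF embryos. The groups did not overlap, as for 48.2% of all genes at this stage, and clone minus IVF was 1.77 ± 0.88 (limma, adjusted p = 0.228). IVF embryos fell by 3.12 ± 0.67 between the 4-cell and 8-cell stages (limma, adjusted p = 0.028), a call lost without 4-cell IVF embryo 1 (-2.37, adjusted p = 0.0859) and without any 1 of the 3 8-cell IVF embryos (-3.16 to -3.10, adjusted p 0.0621 to 0.0657), and in 1 fit of all the arrays (-3.12, adjusted p = 0.0917). The second probe set of Ndn followed the first, with r = 0.95 over the 51 arrays, and stood at 4.05, -0.03, 3.4, 6.11 and 1.5 in 1-cell clones against -0.07, -0.08 and -0.03 in 1-cell IVF embryos, so with it clone 2 lay at the level of the IVF embryos. The main probe set of Ndn is of a design that may share sequence with other transcripts, and the second is not.

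Meg3 (chromosome 12, 109540996 to 109571729), a long non-coding RNA that lies 77.7 kb from Dlk1, stood at 2.2, 2.13 and 2.16 in oocytes. The 1-cell values were 1.12, 2.27, 1.64, 2.44 and 2.71 in clones, against 1.4, 0.45 and 0.94 in IVF embryos. 4 of the 5 clones lay above all IVF embryos, and clone 1 lay within the IVF range. Clone minus IVF was 1.10 ± 0.41 (95% interval 0.11 to 2.09, limma, adjusted p = 0.216). In clones it stood at -2.3, -1.61, -3.03, -2.6 and -2.91 at the 4-cell stage, against -0.39, 1.12, 1.19, 1.35 and 1.57 at the 2-cell stage. The clone step was -3.46 ± 0.86 (limma, adjusted p = 0.00291), and all 5 clones of the later stage lay below all 5 of the earlier one, a step at which 37.5% of all genes did not overlap. The IVF step was -2.40 ± 0.87 (limma, adjusted p = 0.0587) and passed without IVF morula 2 or 3 (-2.40, adjusted p = 0.00487 and 0.0215) and after the filter on SD (-2.40, adjusted p = 0.0334), and the clone step minus the IVF step was -1.06 ± 1.31 (limma, adjusted p = 0.917). From the 8-cell stage on single embryos stood out, with 2.86 in 8-cell clone 4, 2.19 in morula clone 4 and 2.33 in IVF morula 2. 8-cell clone 4 is the array with the low Eif2s3y.

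**Figure D1:**
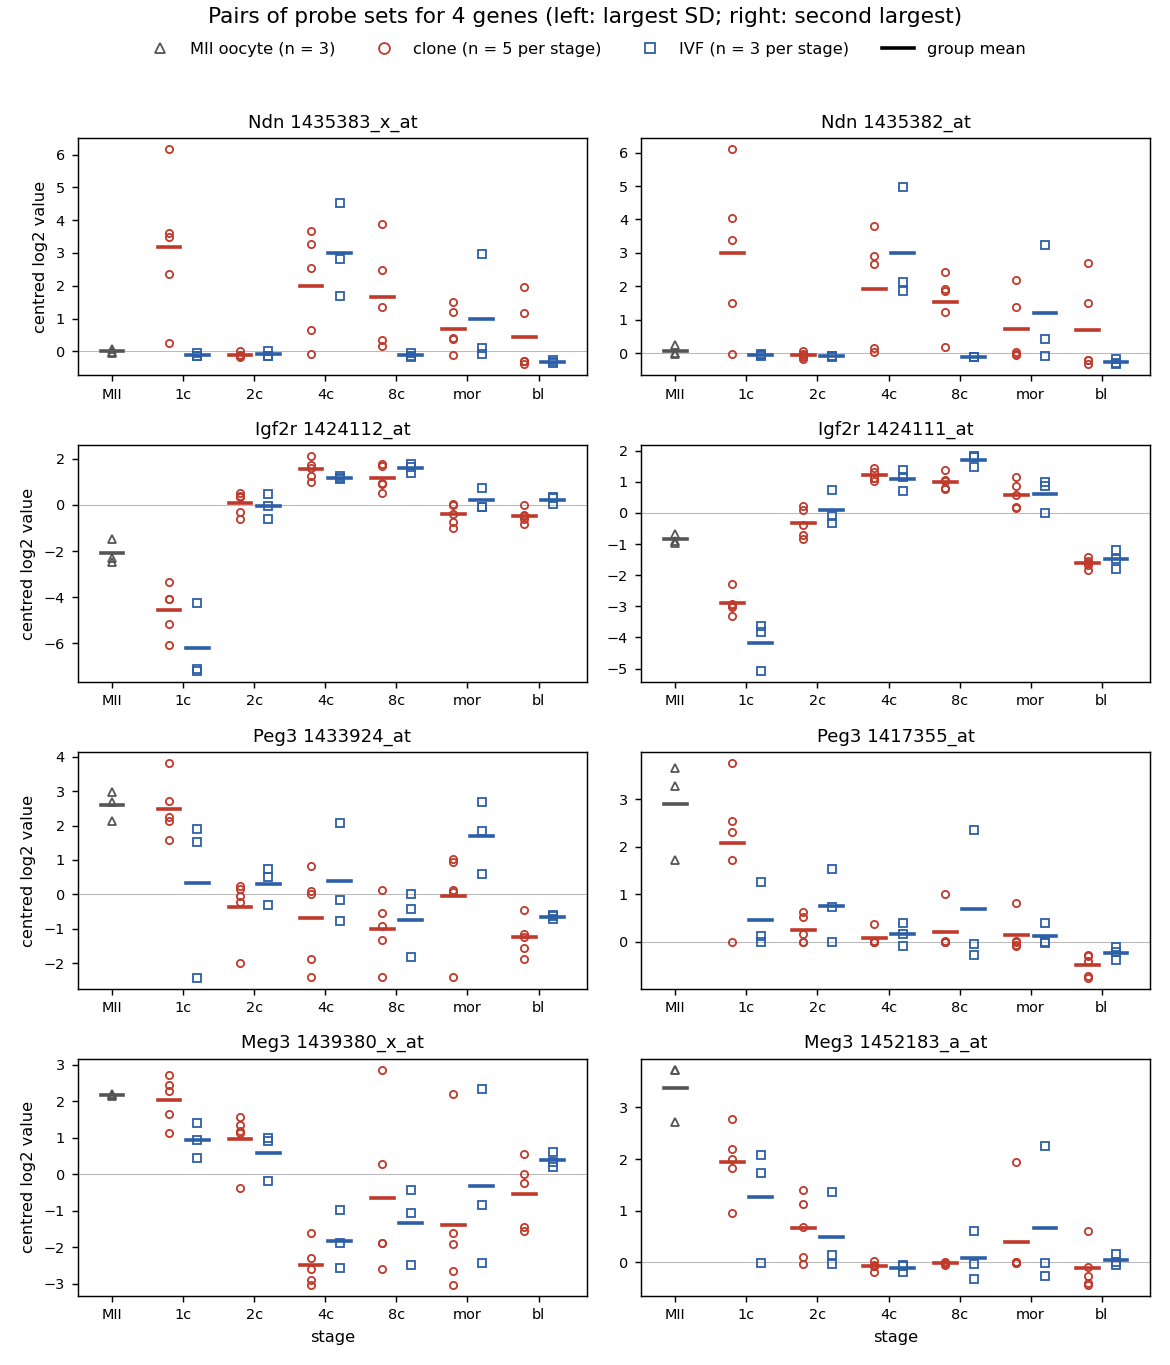
Centred log2 values of the first and second most variable probe sets of Ndn, Igf2r, Peg3 and Meg3 in every oocyte and embryo, by stage. Both probe sets of Ndn show the same high 1-cell and 4-cell embryos, both of Igf2r share the trough at the 1-cell stage, and for Meg3 the fall to the 4-cell stage is deep in the first probe set and shallow in the second.

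How far the 36 probe sets of these genes can be read differed from gene to gene. 17 of them had an SD of at least 0.5 over the arrays, and 19 did not. The second probe set of Igf2r had r = 0.89 with the first, and IVF 1-cell embryos minus oocytes was -3.33 ± 0.37 with it (adjusted p = 3.75e-06 over all probe sets). With it, the step from the 1-cell to the 2-cell stage was 2.58 in clones and 4.28 in IVF embryos, a difference of -1.70 ± 0.39 (adjusted p = 0.00252 over all probe sets). With the first probe set this difference passed only without 1-cell IVF embryo 1 (-2.50, adjusted p = 0.00311) or without 1-cell clone 3 (-1.91, adjusted p = 0.0411). Likewise the second Igf2r probe set fell between the morula and the blastocyst, by 2.20 ± 0.21 in clones (adjusted p = 7.08e-09) and by 2.11 ± 0.37 in IVF embryos (adjusted p = 0.000821), a step at which no fall passed with the first. The second Meg3 probe set had r = 0.72 with the first, and its clone step from the 2-cell to the 4-cell stage was -0.73 ± 0.34 (adjusted p = 0.116), against -3.46 with the first. It fell earlier, in IVF 1-cell embryos against oocytes (-2.12 ± 0.63, limma, adjusted p = 0.0182 over all probe sets). It also fell in clones from the 1-cell to the 2-cell stage (-1.3 ± 0.34, adjusted p = 0.003). Neither fall passed with the first. The first Meg3 probe set is, like that of Ndn, of a design that may share sequence with other transcripts. The second probe set of Igf2 had r = -0.28 with the first and an SD of 0.14, so it did not show the rise in blastocysts.

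At the 1-cell stage the 10 genes together leaned towards higher values in clones. In 8 of the 10 the estimate was above 0, as in 46.1% of all genes, and the median difference was 1.10, against 0.0 over all genes. All 5 maternally expressed genes and 3 of the 5 paternally expressed ones were among these 8. Only Grb10 passed the test, while 6 genes had an unadjusted p under 0.05, as did 18.2% of all genes. The 1-cell clone mean lay between the IVF mean and a higher oocyte mean for 6 genes, Igf2, Igf2r, Grb10, Phlda2, Peg3 and Meg3, against 29.7% of all genes. Clone minus oocyte was -0.10 for Peg3, -0.13 for Meg3, -0.63 for Igf2 and for Grb10, -1.84 for Phlda2 and -2.46 for Igf2r. Of the 8 oocyte marker genes, 6 also had a higher mean in 1-cell clones than in IVF embryos, and Zp1 (1.10 ± 0.12, limma, adjusted p = 0.00591), Oosp1 (0.38 ± 0.05, adjusted p = 0.0091) and Mos (2.15 ± 0.39, adjusted p = 0.0269) passed. The array means of the 8 markers were 5.59 to 6.04 in 1-cell clones, 5.04 to 5.38 in IVF embryos and 6.28 to 6.48 in oocytes. The clone mean lay between the IVF mean and a higher oocyte mean for 4 of the 8, Zp3, Gdf9, Oosp1 and Mos, and Mos, at 11.81 in oocytes, weighs most in the list mean. Bmp15 and Nlrp5 were lower on average in clones than in IVF embryos, and they and Zp2 were lower in oocytes than in both. The part of oocyte RNA in the clone values was not tested.

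**Figure D2:**
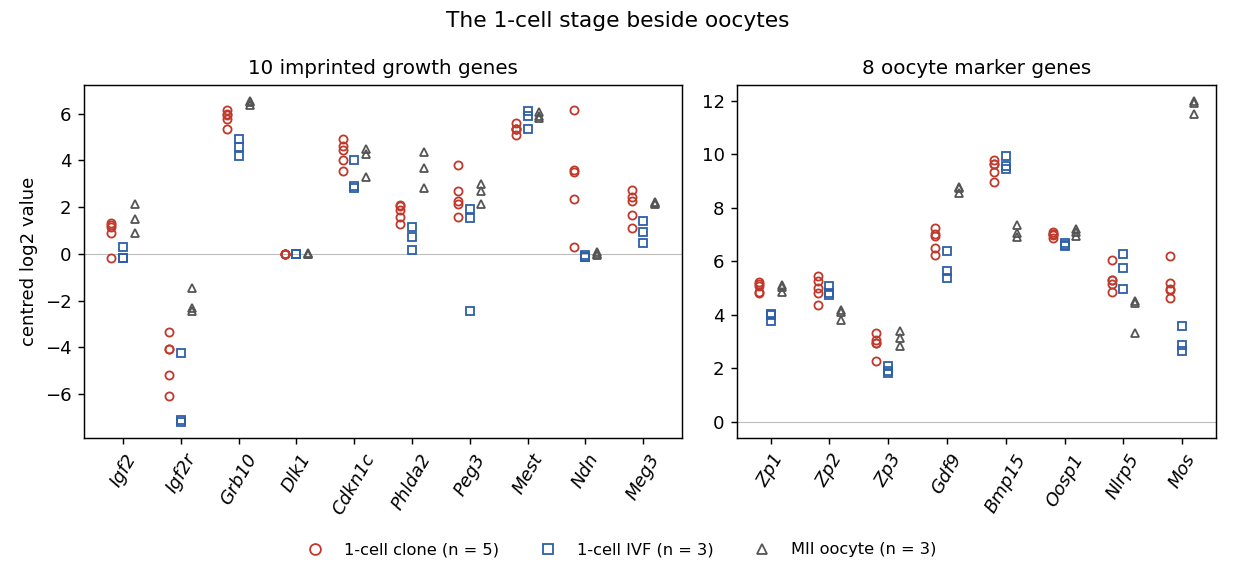
Centred log2 values of the 10 genes (left) and of 8 oocyte marker genes (right) in 1-cell clones (circles), 1-cell IVF embryos (squares) and MII oocytes (triangles). For Grb10 the clones lie between the IVF embryos and the oocytes, for Phlda2 likewise, and for Ndn the clones lie above both.

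At the other stages the genes held no common direction. The estimate was above 0 for 6 of the 10 at the 2-cell, 4 at the 4-cell, 4 at the 8-cell, 4 at the morula and 3 at the blastocyst stage, where 53.4%, 59.4%, 59.1%, 62.8% and 40.4% of all genes had one above 0. The median differences were 0.09, -0.33, -0.04, -0.18 and -0.23 in that order of stages. The intervals show what could have been missed. At the 2-cell stage the 95% interval of clone minus IVF ran from -2.84 to 2.54 for Cdkn1c and from -2.81 to 3.78 for Phlda2, and in morulae from -4.72 to 2.55 for Meg3. By contrast it ran from -0.11 to 0.10 for Cdkn1c at the 8-cell stage and from -0.73 to 0.98 for Igf2r at the 2-cell stage. Clones and IVF embryos may thus differ several fold in the first cases without a call, while for 2-cell Igf2r the interval reaches from 1.66-fold lower to 1.97-fold higher in clones.

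**Figure D3:**
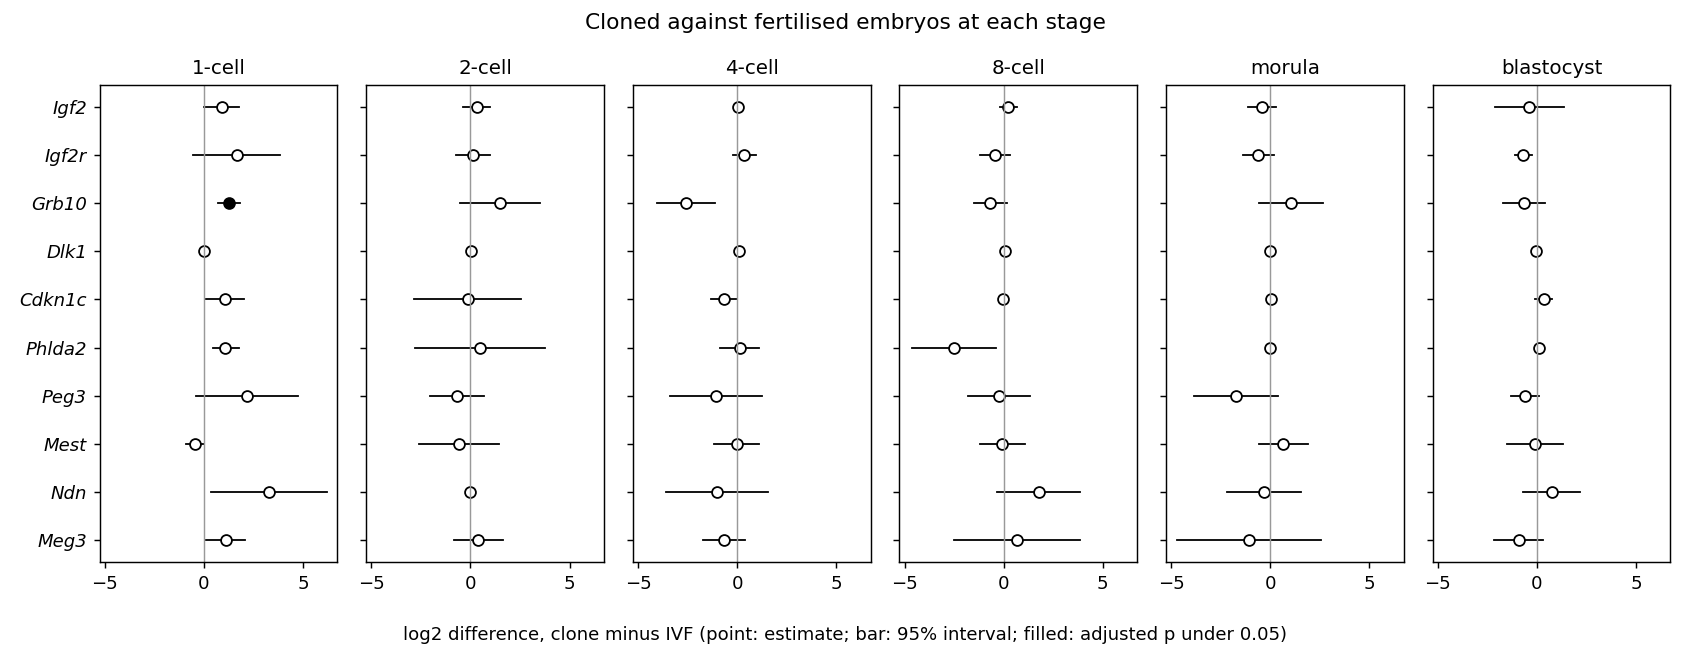
Clone minus IVF differences (horizontal axis, log2) of the 10 genes (rows) at the 6 stages (panels), as limma estimates with 95% intervals. The filled point is Grb10 at the 1-cell stage, the only 1 of 60 past the test, and the intervals of Phlda2, Ndn, Peg3 and Meg3 are wide at several stages.

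Single embryos of a group often disagreed. The SD was larger among clones than among IVF embryos for 4 of the 10 genes at the 1-cell stage, 6 at the 2-cell, 5 at the 4-cell, 5 at the 8-cell, 6 at the morula and 8 at the blastocyst stage. Over all genes the same share was 57.0%, 57.7%, 68.7%, 71.4%, 72.8% and 49.0%. The widest spreads among clones were those of Phlda2 at the 2-cell stage (SD 2.28), of Meg3 at the 8-cell stage (2.24) and of Ndn at the 1-cell stage (2.14). In IVF embryos they were those of Meg3 in morulae (2.43), Peg3 at the 1-cell stage (2.40) and Phlda2 at the 8-cell stage (2.23).

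Across the 13 group means, which share arrays and normalisation, Cdkn1c followed Grb10 (r = 0.96) and Mest (r = 0.95), and Grb10 followed Mest (r = 0.90), while Igf2r ran against Mest (r = -0.87). The genes of the whole array whose 13 group means were most like those of Mest were Bin3 (r = 0.992), Mgst3 (0.989) and Nudt7 (0.988). For Grb10 they were Ppp1r3d (0.983), Zmat4 (0.979) and Hmgxb4 (0.977), for Igf2r Slco4c1 (0.984), Fam120a (0.98) and Pank3 (0.976), and for Cdkn1c Sycp2l (0.994), Hsf5 (0.992) and Rbm18 (0.99). In the order of its 13 group means Grb10 had 3 steps at which neighbouring groups did not overlap, all at the top, from oocytes to 1-cell clones, to 1-cell IVF embryos and to 2-cell clones. Igf2r had 3 too, between 8-cell clones and IVF blastocysts, between clone blastocysts and oocytes, and between oocytes and 1-cell clones. Mest had 1, between 1-cell clones and 2-cell IVF embryos, and the other neighbours of these 3 genes overlapped.

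Other imprinted genes and the pathway around IGF2 were followed beside the 10. Of 18 other paternally expressed genes measured, 1 passed between clones and IVF embryos at any stage, the amino acid transporter Slc38a4, higher in clone blastocysts by 1.94 ± 0.18 (limma, adjusted p = 0.00536). Over all genes, 19.8% passed at 1 stage or more. Of 25 other maternally expressed genes, Th (2.03 ± 0.34, adjusted p = 0.0217) and the ubiquitin ligase Ube3a (1.41 ± 0.29, adjusted p = 0.0407) were higher in 1-cell clones, and Tssc4, which lies in the same imprinted cluster as Cdkn1c, was lower in 2-cell clones (-0.83, adjusted p = 0.0342). In clone blastocysts the tetraspanin Cd81, of that cluster too, was higher by 4.64 ± 0.56 (adjusted p = 0.00966), and Ppp1r9a and Ube3a were lower (-1.35 and -0.48). At the 1-cell stage 0 of the 18 passed (limma, 1 by unadjusted p under 0.05), and 2 of the 25 did, against 6.31% of all genes. Of the 25, 1 passed at the 2-cell stage (2.37% of all genes) and 3 in blastocysts (6.18%).

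Of 20 measured genes of IGF and insulin signalling, 1 passed at the 1-cell stage (6.31% of all genes), 1 at the 4-cell (2.26%), 2 at the 8-cell (6.62%) and 3 at the blastocyst stage (6.18%), and 0 at the 2-cell and morula stages (limma, with 5 and 3 at an unadjusted p under 0.05). The kinase Akt1 was higher in 1-cell clones by 0.68 ± 0.11 (limma, adjusted p = 0.0214) and lower in 8-cell clones (-2.75 ± 0.26, adjusted p = 0.00419). Igfbp5, a protein that binds IGFs outside the cell, was higher in clones at the 4-cell stage by 1.13 ± 0.13 (adjusted p = 0.0119) and at the 8-cell stage by 1.66 ± 0.24 (adjusted p = 0.0158). Grb14, the closest relative of Grb10 here, was higher in clone blastocysts by 2.18 ± 0.42 (adjusted p = 0.0344), while Igf2bp3 and Igf2bp1, which bind Igf2 RNA, were lower (-0.86 and -0.65). Of 12 measured genes that maintain imprints, 7 of the calls between clones and IVF embryos were lower in clones and 1 was higher, which is 11.1% of their 72 tests against 3.99% over all genes. Calls over all genes were also mostly lower in clones at the 2-cell (93 higher and 339 lower), 4-cell (84 and 328) and 8-cell stages (391 and 813). The calls named Trim28, a corepressor that works with ZFP57, at 4 stages, and Hells, Setdb1, Arid4b and Mbd3 at 1 stage each. Trim28 was higher in 1-cell clones (3.17 ± 0.34, limma, adjusted p = 0.00568) and lower in 2-cell (-1.81 ± 0.05, adjusted p = 5.22e-05), 4-cell (-1.32 ± 0.09, adjusted p = 0.00278) and 8-cell clones (-1.68 ± 0.25, adjusted p = 0.0182). With the hybridisation controls as a covariate, 0 of the 18193 genes passed at the 2-cell and 4-cell stages, and 17 at the 8-cell stage. The 2-cell and 4-cell calls of Trim28, Setdb1, Igfbp5 and Tssc4 were thus lost in that setting. With the replicate number as a block, 0 of all genes passed at any stage after the 1-cell.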

How the data were processed

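RNA of single oocytes and embryos was amplified and hybridised to Affymetrix arrays, per the labels' protocols. The deposited values are log2 intensities made with RMA, per the submitters' processing notes, with no version given. The log base and a centring of each probe set were inferred from the values: 94.3% of probe sets have exactly 1 array at 0, and the widest spans 13.8 units.

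Of 45101 probe sets, 64 manufacturer controls were left out and 34945 had exactly 1 symbol in the platform annotation. They gave 18193 genes, each read through its most variable probe set by SD. Clones and IVF embryos were compared in 6 fits of 8 arrays, transitions in a fit of 21 oocyte and IVF arrays and a fit of 30 clone arrays, and differences of transitions in a fit of 51 arrays. All 22 comparisons used limma 3.58.1 (lmFit, eBayes) in R 4.3.3, tested on simulated data, with Benjamini-Hochberg adjustment over all genes and a threshold of 0.05. Gene positions are RefSeq on GRCm38.p6.

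All 10 genes are described. From each other list up to 4 genes called in each comparison of clones with IVF embryos, those with the smallest adjusted p, are named, and 3 genes most alike for the 4 genes with the largest SD of group means. Genes and lists were chosen with earlier results of these data known. Replicate numbers do not pair clones with IVF embryos: residuals of the same number correlated between -0.204 and 0.102. Alternatives were another quantile normalisation, arrays centred on their medians, removal of the 30% of genes with the lowest SD, all probe sets, 1 fit of all arrays, hybridisation controls as a covariate, the replicate number as a block, each array left out and, chosen after seeing the data, 3 arrays that stand apart left out.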

Additional observations from a re-analysis of the deposited data

Results flagged for a closer look

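In 10 of the 60 groups of 5 clones (10 genes at 6 stages) 1 clone lay further from the other 4 than Dixon's 95% limit allows, where chance sets 1 in 20 groups of normal values apart. That is 16.7% of the groups, against 17.5% of the 109158 such groups over all genes, so the 10 genes do not stand out in this. For Igf2 these were 1-cell clone 5 at -0.19, 8-cell clone 5 at 0.58 and morula clone 2 at -0.48. For Peg3 they were 2-cell clone 5 at -1.98 and morula clone 1 at -2.39, and for Meg3 2-cell clone 1 at -0.39 and morula clone 4 at 2.19. For Phlda2 they were 8-cell clone 2 and morula clone 5, both at -0.17, and for Dlk1 2-cell clone 4 at 0.22, in groups whose other clones lay within 0.03 of each other. 1-cell clone 5 is 1 of the arrays whose hybridisation controls stood apart, and its part in the Igf2 value was not tested. The difference between clones and IVF embryos in the step of Grb10 from the 2-cell to the 4-cell stage was tested directly and was -4.07 ± 0.81 (limma, adjusted p = 0.00249).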

How the results depend on the processing

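Among results of the 10 genes called as reported or in an alternative, none turned its direction in the alternatives run. Of 27 called results set against 152 alternative values other than single arrays left out, 139 kept their side of the threshold and 13 lost the call, 8 of them under the second quantile normalisation, which acts on values already centred. Between clones and IVF embryos 1 test passed as reported, 4 in 1 fit of all 51 arrays, 0 with the hybridisation controls as covariate and 2 after the 30% of genes with the lowest SD were removed. Over all genes that covariate lowered the calls from 1148 to 533 at the 1-cell and from 1125 to 340 at the blastocyst stage. At the 2-cell, 4-cell, 8-cell and morula stages they went from 432, 412, 1204 and 30 to 0, 0, 17 and 7. With all probe sets 22 clone transitions passed in place of 14 (more tests were made there, 1 per probe set) and 2 differences of transitions in place of 1, and 2 passed after the filter on SD. The cause of the other shifts was not tested. Leaving out single arrays gave 0 to 2 calls between clones and IVF embryos, 13 to 16 over the clone transitions, 1 to 3 over the differences and 10 to 13 over the oocyte and IVF transitions. With the replicate number as a block 0 tests between clones and IVF embryos passed (Grb10 at the 1-cell stage 1.20, adjusted p = 0.165), 12 oocyte and IVF transitions in place of 11, 14 clone transitions and 1 difference, but the numbers do not pair embryos. Without the 3 arrays that stand apart, an alternative chosen after seeing the data, the counts were 1, 15 and 1 for clones against IVF embryos, clone transitions and differences, but the 1 was then Igf2 and not Grb10. In the fit of all arrays the 4 were Igf2r and Ndn at the 1-cell, Grb10 at the 4-cell and Phlda2 at the 8-cell stage. The number of embryos limits the precision, and signal over background was not judged.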
